A study of Mus musculus with 3 samples.

Results

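Mir574 is a mouse miRNA gene that gives rise to mmu-miR-574-5p and mmu-miR-574-3p, one from each arm of its hairpin, and both were followed here across 3 miRNA arrays of dendritic cells (BMDCs) grown from mouse bone marrow. They are 2 of 568 mouse miRNA names on the array, each with 1 probe. They were chosen by name, with their normalized intensities on all 3 arrays already known, so all their ratios below are descriptions with no test. In the control group the labels name no tumour cells, and no culture time, serum or antibiotic is given for it. The ID8 group, spelled 1D8 in the deposited table, was kept for 24 h with 3% serum and antibiotic. It shared a transwell with ID8, an ovarian tumour line of the mouse. The CT-26 group was kept likewise with CT-26, a line from a colon carcinoma of the mouse. Mouse strain, number of animals and pooling are not given in the sources used here. Each group was 1 array, so there is no replicate error, no p-value could be computed, and a ratio compares 2 arrays, not 2 conditions.

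A miRNA precursor is cut to a short duplex, and either strand of it, the 5p or the 3p arm, can be loaded into Argonaute and pair with messenger RNAs through its seed, the bases 2 to 8. In Mir574 one strand is a UG repeat and the other is rich in A and C. Repeats of U and G are bound by CUGBP1, a decay and splicing factor for which miR-574-5p has been described as a decoy in human cells. RNA rich in G and U is also a ligand of the endosomal receptors TLR7 and, in humans, TLR8, and extracellular miR-574-5p has been described as such a ligand. CA-rich RNA is bound by hnRNP L, and miR-574-3p has been described as its partner in human myeloid cells.

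The sequences, from RefSeq on build GRCm38.p6, are shown because the arms differ so much in composition. Capitals in the mature miRNAs mark the seed, and capitals in the hairpin mark the mature arms, miR-574-5p first.
miR-574-5p: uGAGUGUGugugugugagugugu
miR-574-3p: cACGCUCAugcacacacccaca
Mir574 hairpin: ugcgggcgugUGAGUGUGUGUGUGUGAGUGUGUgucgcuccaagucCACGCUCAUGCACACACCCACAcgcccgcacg
The hairpin lies at chr5:64970318-64970395 on the plus strand, with miR-574-5p at chr5:64970328-64970350 and miR-574-3p at chr5:64970364-64970385. In the RefSeq gene table of that build the hairpin falls within the span of Fam114a1, on the same strand, and within that of Tlr6, a Toll-like receptor gene on the opposite strand. Whether it is exonic or intronic was not read here. No other miRNA gene lies within 100 kb.

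miR-574-5p is 23 bases long and 21 of them are G or U, a share of 91.3% against a median of 54.5% over 1679 mature mouse sequences in the table. That share is the highest in the table, and so is the length of its run of alternating U and G, at 13 bases, in a table that holds none of the names on the array from the repeat-rich miR-297, miR-466, miR-467 and miR-669 families. The letters UGUGUG occur in 28 of the 1679 sequences (1.67%). miR-574-3p is 22 bases long with 18 A or C, and its longest run of alternating A and C is 7 bases, a length that 6 sequences of the table reach or pass, miR-574-3p counted. ACACAC or CACACA, which overlap each other, occur in 17 sequences (1.01%). All of these motifs were read on the miRNA strand alone. In the predicted fold of the hairpin the arms share 20 base pairs, 3 of them between G and U. No other mature sequence in the table has the seed of either arm, so no seed family can be set beside them.

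Both arms were bright on the control array, somewhat dimmer beside ID8 cells and dimmest beside CT-26 cells. The probe for miR-574-5p had a background-corrected intensity of 605.5 units in control BMDCs, 432.75 beside ID8 and 74.75 beside CT-26 cells. It thus stayed well over empty spots, of which the brightest reached 6 units, but on the CT-26 array it was only 1.5 times the floor of 50 units that was set for a measured signal. The probe for miR-574-3p read 722 units in control BMDCs, 641 beside ID8 and 335.25 beside CT-26 cells, at least 6.7 times the floor throughout. Among the 579 mouse probes, ranked by brightness within each array, miR-574-5p was 56th in the control, 76th beside ID8 and 155th beside CT-26 cells, while miR-574-3p was 48th, 60th and 80th. The 5p arm left the bright part of the array beside CT-26 cells and the 3p arm did not. The local background under both spots was between 57.75 and 59.5 units on the control array and between 47.5 and 50 on the others, close to the array medians of 57.75, 49.5 and 48.25.

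**Figure D1:**
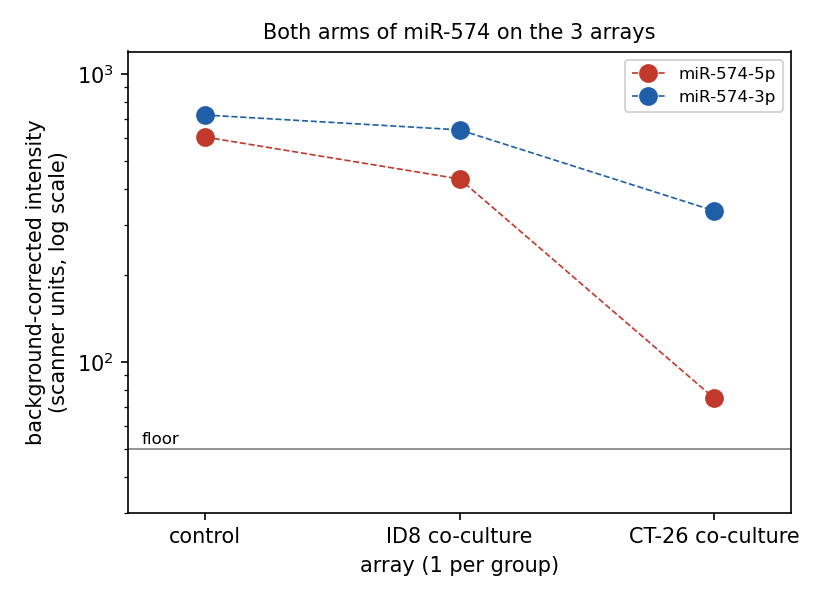
Background-corrected intensity of the miR-574-5p and miR-574-3p probes, in scanner units on a log axis, in control, ID8 and CT-26 BMDCs, 1 array per group; the grey line is the floor of 50 units and the dashed lines only join points of 1 probe. miR-574-5p reads 605.5, 432.75 and 74.75 units and miR-574-3p 722, 641 and 335.25 units.

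The authors divided the corrected intensities of each array by 1 constant to give normalized intensities. The normalized intensity of miR-574-5p was 1.86 in control BMDCs, 1.09 beside ID8 and 0.223 beside CT-26 cells. For miR-574-3p it was 2.22, 1.61 and 1, in the same order. The value of 1 on the CT-26 array is exact for a reason of construction. The constant of that array, 335.25, is the median of the 159 mouse probes above the floor on all 3 arrays, and the probe at that median is miR-574-3p itself. When the arrays were scaled to the median of the remaining probes, with both miR-574 probes left out, the log2 ratio of miR-574-3p in CT-26 over control was -1.19, against -1.15 as deposited.

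In ID8 over control, neither arm passed 2-fold. The log2 ratio was -0.78 for miR-574-5p, a 1.71-fold difference, and -0.46 for miR-574-3p, a 1.38-fold difference. Of the 165 mouse miRNAs that reached the floor on these arrays, 5 (3.03%) were lower by 2-fold or more, 8 (4.85%) were higher, 13 (7.88%) were either, and the median log2 ratio was 0.02. miR-574-5p was the 8th from the lowest and miR-574-3p the 19th, so both lay in the lower part of the distribution, below its lower quartile of -0.27.

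In CT-26 over control, both arms were past 2-fold as deposited. miR-574-5p had a log2 ratio of -3.06, which is 8.36-fold lower and the lowest of the 158 mouse miRNAs measured on this pair. Rankings of ratios leave out any miRNA under the floor of 50 units on either array. A miRNA that fell below the floor would thus not be listed, however deep its fall. miR-574-3p had a log2 ratio of -1.15, which is 2.22-fold lower and the 10th from the lowest. Of the 158, 11 (6.96%) were lower by 2-fold or more, 21 (13.3%) higher and 32 (20.3%) either, and the median log2 ratio was 0.01. Since the members were chosen with these ratios known, nothing is read from that share. The dim reading of miR-574-5p beside CT-26 cells makes its ratio depend on how background is treated. Without background subtraction its log2 ratio was -2.45, and with normexp correction and an offset of 50 it was -2.38, the lowest of all miRNAs measured under each of these settings.

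In ID8 over CT-26, miR-574-5p had a log2 ratio of 2.28, which is 4.87-fold higher beside ID8 cells and the highest of 175 mouse miRNAs. miR-574-3p had a log2 ratio of 0.69, short of 2-fold and 10th from the highest. Of the 175, 4 (2.29%) were higher by 2-fold or more, 11 (6.29%) lower and 15 (8.57%) either. Every pair of comparisons shares an array, so these ratios are not independent of each other.

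**Figure D2:**
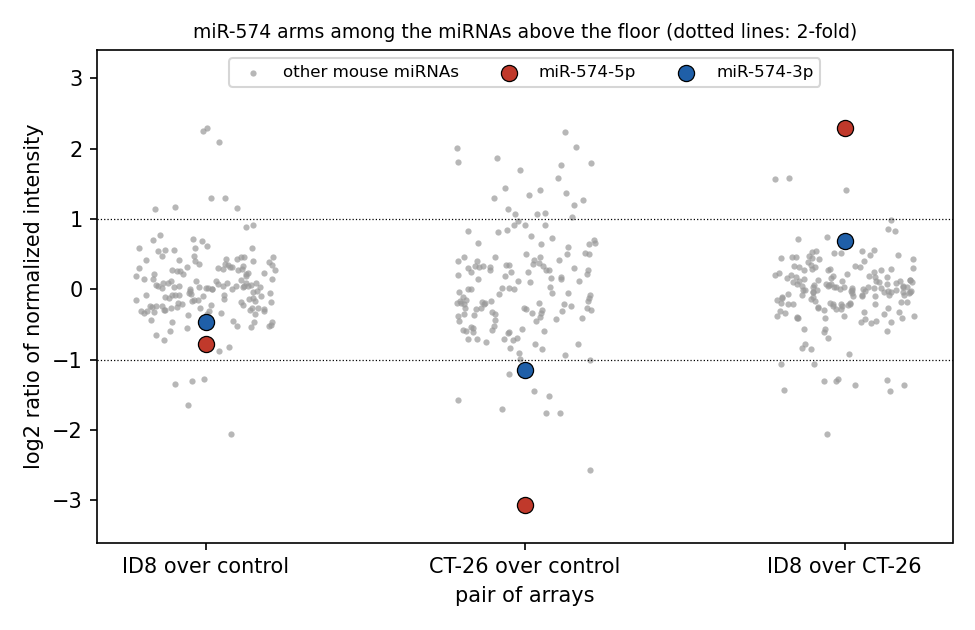
Log2 ratio of normalized intensity in each pair of arrays, for the mouse miRNAs above the floor on both (165, 158 and 175); grey points are other miRNAs, red is miR-574-5p, blue is miR-574-3p and dotted lines mark 2-fold. miR-574-5p is the lowest point in CT-26 over control (-3.06) and the highest in ID8 over CT-26 (2.28).

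The position of the probes bears on the CT-26 values. The deposited table divides the array into 8 sections, numbered in its Array Row column, and the miR-574 probes sit side by side in section 7, in columns 5 and 6 of row 4. Over the other probes of that section above the floor on both arrays, with marker spots left out, the median log2 ratio in CT-26 over control was -0.55, while the medians of the other 7 sections ran from -0.05 to 0.46. The Hy3 marker spots of section 7, landmarks that carry the dye itself, had a median log2 ratio of -0.28 in corrected intensity, against -0.13 to 0.09 in the other sections. In ID8 over CT-26 the median of section 7 was 0.47, against -0.22 to 0.05 elsewhere. In ID8 over control it was -0.06, inside the range of the other sections, -0.09 to 0.20. Over mouse probes alone it was -0.16 in ID8 over control, just under the other sections, -0.11 to 0.23. Section 7 therefore stood well apart in both pairs that contained CT-26, and in ID8 over control by far less.

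In the pairs with CT-26, most of the probes past 2-fold in the direction of miR-574 came from its section. Of the mouse probes at least 2-fold lower in CT-26 over control, 7 were among the 19 in section 7 (36.8%) and 4 among the 140 in the other sections (2.86%). Both miR-574 probes are counted in the 7 and in the 19. Of the mouse probes at least 2-fold higher in ID8 over CT-26, 4 were among the 21 in section 7 and 0 among the 156 elsewhere. The 4 include miR-574-5p, and the 21 include both miR-574 probes. Of the 5 probes at least 2-fold lower in ID8 over control, 1 was in section 7. The values that follow set the miR-574 ratios beside those of their section. How much of the ratios goes with the section was not tested.

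Set against its own section, miR-574-5p remained apart in the pairs with CT-26, and miR-574-3p did not. In CT-26 over control the other 17 mouse probes of section 7 had log2 ratios from -1.71 to -0.27, with a median of -0.75, and all 17 lay above miR-574-5p. For miR-574-3p, 5 of the 17 were lower and 12 higher. With the section median over all probes (-0.55) subtracted, the log2 ratio of miR-574-5p was -2.52, a 5.72-fold difference and 2nd lowest of 159 probes. For miR-574-3p it was -0.60, a 1.52-fold difference that no longer passed 2-fold, and 33rd from the lowest. In ID8 over CT-26 the same step gave 1.82 for miR-574-5p, still the highest of 177 probes, and 0.22 for miR-574-3p. In ID8 over control it gave -0.72 and -0.40. There neither arm was outside its section, since 1 of the 20 other mouse probes was below miR-574-5p and 2 were below miR-574-3p.

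**Figure D3:**
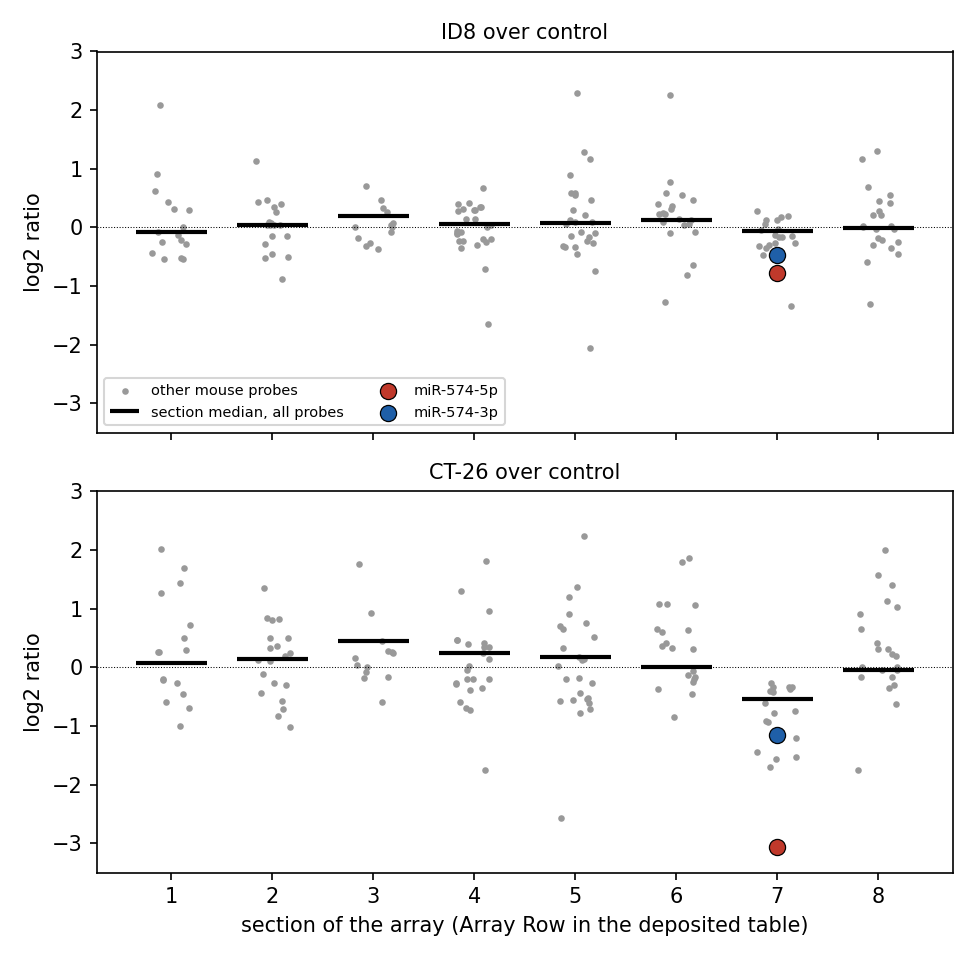
Log2 ratio of mouse probes above the floor by section of the array (grey), with the median over all probes of each section except the members and marker spots (black bars) and the miR-574 probes in color, for ID8 over control (top) and CT-26 over control (bottom). In the bottom panel the bar of section 7 lies at -0.55, miR-574-3p is among its neighbours and miR-574-5p is below all of them.

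Other ways of processing moved both arms. Of the 10 alternatives, 6 shift both arms by the same amount and so cannot change the difference between them. Under the other 4, which change the background or use quantile scaling, miR-574-5p was further from 0 than miR-574-3p in each comparison. Its log2 ratio in CT-26 over control ran from -4.13, scaled to U6-snRNA-2, to -2.38, with normexp correction. That of miR-574-3p ran from -2.22 to -0.60.

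**Figure D4:**
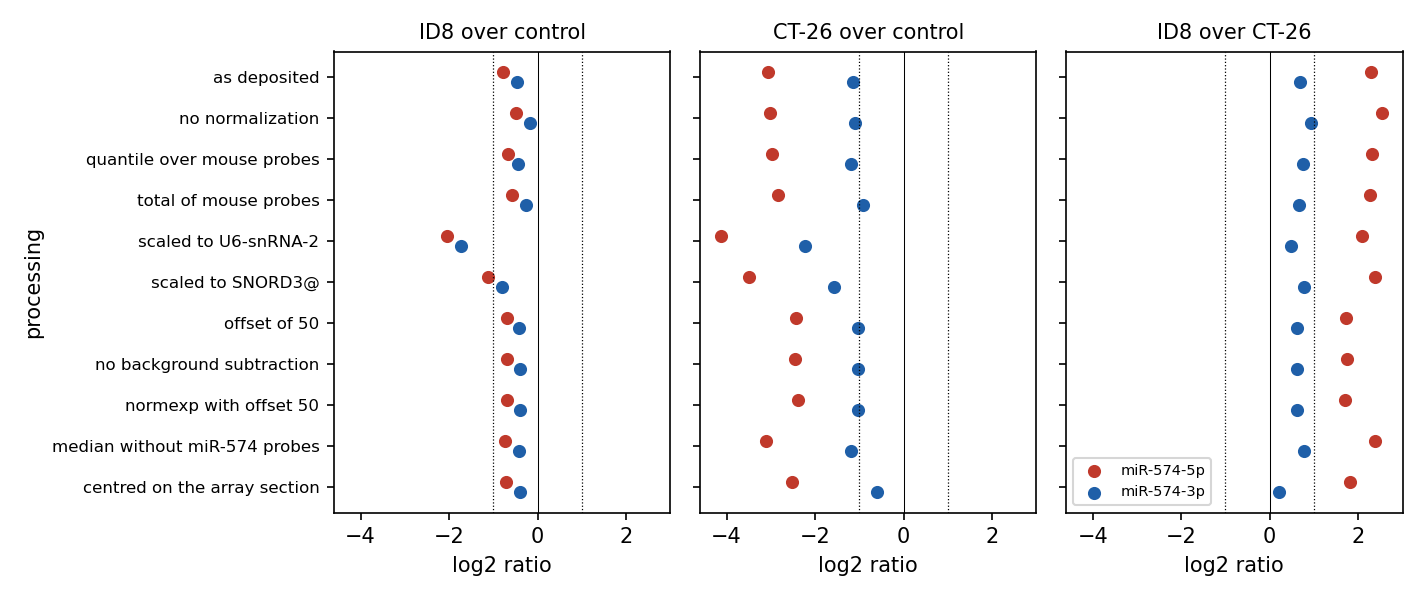
Log2 ratios of miR-574-5p (red) and miR-574-3p (blue) as deposited and under 10 other ways of processing, 1 row each, in the 3 pairs of arrays; dotted lines mark 2-fold. In the middle panel miR-574-5p stays between -4.13 and -2.38, and miR-574-3p falls short of 2-fold with total scaling (-0.92) and when centred on its section (-0.60).

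The spots next to the miR-574 probes give a closer view. Of the 10 probes that touch them in the grid, 4 were above the floor on all 3 arrays. A probe with no name in the table, directly beside miR-574-5p in row 3, read 1853.25, 816.5 and 406 units in control, ID8 and CT-26 BMDCs. Its log2 ratio was -1.48 in ID8 over control and -2.24 in CT-26 over control, so its readings had the same order over the arrays as those of miR-574-5p. miR-200b*, directly beside miR-574-3p in row 3, read 387.75, 382.75 and 237.5 units, with a log2 ratio of -0.75 in CT-26 over control. The other 2, both without a name in the table, had log2 ratios of -0.85 and 0.36 in that comparison.

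The arms of miR-574 also differed from each other. The divergence, taken as the log2 ratio of miR-574-5p minus that of miR-574-3p, was -0.31 in ID8 over control, -1.91 in CT-26 over control and 1.60 in ID8 over CT-26. Any constant that scales a whole array, or a whole section of it, cancels in this quantity, while a difference between spots within the section does not. In signal, the 5p arm lost 3.76-fold more than the 3p arm between the control and CT-26 arrays, and 1.24-fold more between the control and ID8 arrays. The row 3 spots directly beside the 5p and 3p probes were at -2.24 and -0.75 in CT-26 over control. In ID8 over control they were at -1.48 and -0.31. How much of the divergence goes with position inside the section was not tested. Under the background alternatives the CT-26 over control divergence lay between -1.42 and -1.36, still past 2-fold.

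Other precursors with both arms above the floor give a scale for that divergence. In CT-26 over control there were 20 of them, and the absolute divergence had a median of 0.79 and a range of 0.15 to 2.42. It was past 2-fold in 8 of the 20. miR-574, at 1.91, ranked 3 of 21, after miR-142 (miR-142-5p at 2.01 and miR-142-3p at -0.41), a blood cell miRNA, and miR-22 (miR-22* at 0.28 and miR-22 at 2.24), abundant in myeloid cells. A wide divergence of the arms was therefore common in that comparison. It was past 2-fold in 5 of 20 other precursors in ID8 over control and in 3 of 21 in ID8 over CT-26. In miR-142 and miR-22 one arm was past 2-fold higher and its partner within 2-fold of the control. In miR-574 both arms were at least 2-fold lower as deposited, and 0 of the other 20 showed that. Over all 158 miRNAs the share at least 2-fold lower was 6.96%. With its section median subtracted, miR-574-3p was at -0.60, short of 2-fold. The members were chosen with these ratios known, so nothing is read from the count.

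In ID8 over CT-26 the divergence of miR-574 ranked 1 of 22, ahead of miR-142 (absolute divergence 1.38) and miR-21 with miR-21* (1.37), and the median of the other 21 was 0.48. In ID8 over control it was 12th of 21, where miR-22 (1.82), miR-21 (1.82) and let-7d (1.67) diverged most and the median of the other 20 was 0.50. With section medians subtracted from each arm, miR-574 ranked 3 in CT-26 over control, 1 in ID8 over CT-26 and 13 in ID8 over control.

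**Figure D5:**
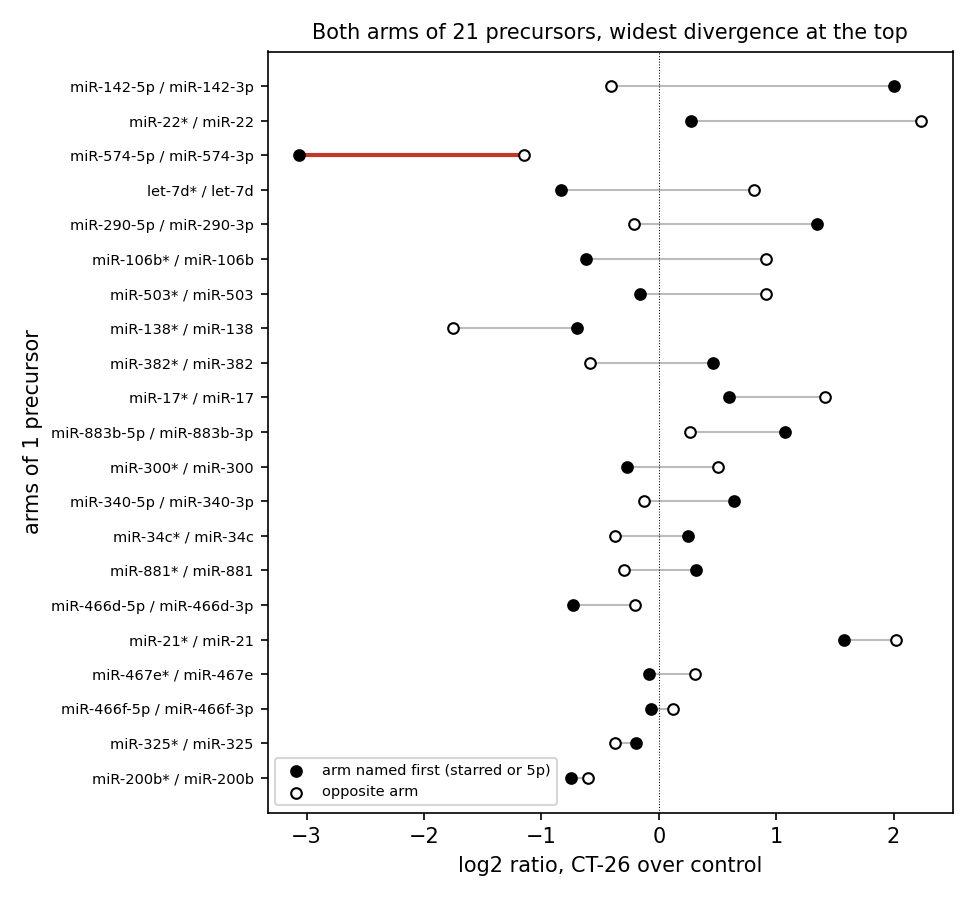
Log2 ratio in CT-26 over control for both arms of the 21 precursors whose arms were above the floor on both arrays, 1 line per precursor, sorted by divergence; filled circles are the starred or 5p arm and open circles the opposite arm. miR-574 (red line) runs from -3.06 to -1.15 and ranks 3 from the top, after miR-142 and miR-22.

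The repeat-rich miRNAs of the miR-297, miR-466, miR-467 and miR-669 families, many of them from a cluster in the Sfmbt2 gene, are known for repeats of U with G and of A with C; their composition was not compared with that of miR-574 here. Of the distinct mouse names on the array, 139 had the same name in the RefSeq miRNA table, and none of the 27 names of these families did, so they were taken by family name and their sequences are not shown. In CT-26 over control 21 of the 27 were above the floor, 1 was at least 2-fold lower and 0 higher, and the median log2 ratio was -0.24. In ID8 over control 22 were above the floor, 0 passed 2-fold and the median was -0.14. In ID8 over CT-26 1 of 21 was at least 2-fold higher and the median was 0.10. Medians over all miRNAs were 0.01, 0.02 and -0.01 in that order. Below 0 were 16 of 21 in CT-26 over control and 16 of 22 in ID8 over control, where over all miRNAs the shares were 48.7% and 46.1%. As deposited, more of these miRNAs than of all miRNAs thus lay below the control, by amounts small beside the -3.06 of miR-574-5p. With section medians subtracted, 18 of 21 and 18 of 22 were below 0. Those medians are over all probes and can differ from those of mouse probes, as in section 4 in CT-26 over control (0.24 against -0.01). The share over all miRNAs after that step was not computed, so nothing is read from these counts.

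Within them the 5p arms of miR-466 lay on one side in CT-26 over control. All 6 such names had log2 ratios below 0 in CT-26 over control, from -0.06 to -1.57 with a median of -0.72, where 77 of all 158 miRNAs (48.7%) were below 0. Over all family names that are 5p or unstarred, which include miR-466g at 0.20, 10 of 13 measured were below 0, with a median of -0.45. miR-466b-5p, the lowest, read 540.75, 593.5 and 188 units in control, ID8 and CT-26 BMDCs and shares section 7 with miR-574. The other 5 lie in other sections, and with section medians subtracted their log2 ratios ran from -1.06 (miR-466e-5p) to -0.07 (miR-466f-5p), with a median of -0.85. miR-466d-5p, in section 4, read 715.75, 843.75 and 445.75 units, so that it was dimmer on the CT-26 array alone. miR-466a-5p read 507.75, 561 and 321.25 units, and miR-466c-5p 506, 525.5 and 347.5 units. The 4 probes for miR-466 3p arms had log2 ratios from -0.61 to 0.17 with a median of -0.04. With section medians over all probes subtracted, these 4 were all below 0, from -0.37 to -0.05 with a median of -0.18. They lie in sections 3, 5 and 7, with medians of 0.46, 0.17 and -0.55 over all probes. Over mouse probes alone those medians were lower, at 0.17, 0.02 and -0.78. The sign after this step thus depends on the reference, and no direction of the 3p arms is read from it. This split by arm was made after the values were seen, and probes of this family may share signal because their sequences are alike.

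The remaining measured members of these families lay between -0.78 and 0.31 in CT-26 over control, in section 7 and outside it. miR-297c, miR-466b-3-3p and miR-669a, all in section 7, had log2 ratios of -0.78, -0.61 and -0.33 in CT-26 over control. In other sections miR-669c was at -0.45, the shared probe of miR-297b-3p, miR-297a* and miR-297c* at -0.26, miR-297a at -0.04, miR-297b-5p at 0.03, miR-466g at 0.20 and miR-467e at 0.31. The starred probes of miR-467 ran from -0.24 for the shared probe of miR-467a* and miR-467d*, through -0.11 for miR-467b*, to -0.09 for miR-467e*. miR-669b was measured in ID8 over control only, at 0.31, and miR-466h, miR-467a, miR-467b, miR-467c and miR-467d were under the floor on at least 1 array of every pair. In CT-26 over control no measured member of these families came within 2-fold of the ratio of miR-574-5p.

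Matching by sequence was possible only for the 139 of 568 mouse names that the RefSeq miRNA table also held, and the rest were not searched. Among the 139, miR-291a-3p was the only further name with UGUGUG, and it read at most 7.25 units, under the floor. With ACACAC or CACACA, as in miR-574-3p, there were 4 further names among the 139. Of these miR-568 and miR-342-3p were under the floor. miR-362-3p read 229.5, 241 and 207 units in control, ID8 and CT-26 BMDCs, and miR-713 read 670.25, 933.25 and 546 units. Their log2 ratios in CT-26 over control were -0.19 and -0.34, so neither was near 2-fold.

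miRNAs described, like miR-574-5p, as extracellular ligands of TLR7 or TLR8 had other profiles. let-7b read at most 15.5 units and was under the floor. miR-21 read 65.5 units in the control, 342.5 beside ID8 and 274.5 beside CT-26 cells, with log2 ratios to control of 2.09 and 2.02. miR-29a read 76.25, 149.75 and 104 units, with log2 ratios to control of 0.68 and 0.40. Where miR-574-5p was below the control, miR-21 was past 2-fold above it and miR-29a was within 2-fold.

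The profiles most like each arm were found by the root mean square difference of log2 normalized intensity over the 3 arrays, after each miRNA was centred on its own mean, among 157 others. For miR-574-5p the nearest were miR-483, which lies in Igf2 (difference 0.55), miR-466b-5p (0.61), miR-678 (0.63), miR-200c* (0.70) and miR-24-2* (0.75). miR-574-3p was 8th, at 0.84. For miR-574-3p they were miR-207 (0.07), miR-466e-5p (0.09), miR-770-3p (0.13), miR-200c* (0.14) and miR-297c (0.15). Of each set of 5, 4 had their probes in section 7, which held 17 of the 157 miRNAs compared. Once section medians were subtracted, the nearest to miR-574-3p were miR-669c, miR-130b*, miR-329, miR-197 and miR-872*, and none of the former 5 remained. For miR-574-5p the step cannot change its difference from miR-483, miR-466b-5p and miR-678, which share its section, and miR-138 and miR-466e-5p, from other sections, came among the nearest 5. miR-483 is the brightest of these, at 13376.5 (control), 15018 (ID8) and 4229.5 units (CT-26), so a low CT-26 reading in section 7 was not limited to dim probes. With 3 arrays such likeness has few points to rest on.

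Some facts of the arrays frame these values. The floor was reached by 175, 192 and 178 of 579 mouse probes in control, ID8 and CT-26 BMDCs. Of 7 miRNAs listed as markers of myeloid and dendritic cells, 5 reached it in control BMDCs and 7 in each co-culture, with summed normalized intensities of 2.53, 6.67 and 7.06. In the control miR-223 (49 units) and miR-155 (49.5 units) were just under it. miR-142-5p, miR-146a, miR-21 and miR-22 were past 2-fold higher in each co-culture. miR-142-3p, the brightest of the list in the control, had log2 ratios to control of 0.13 (ID8) and -0.41 (CT-26). Of 9 epithelial markers, miR-200b and miR-194 were above the floor on each array, with list sums of 0.725, 0.594 and 0.952. miR-194 read 51.75, 53.25 and 187 units, a log2 ratio of 1.81 in CT-26 over control, and miR-200b read 143.5, 141.5 and 97.25 units, a log2 ratio of -0.61. miR-205 and miR-429 were near 0. Of the lymphoid and erythroid markers miR-150 reached 64.25 units and miR-451 70 units at most. The part of any change in cell makeup in the miR-574 ratios was not tested, and in bulk RNA fewer cells that make a miRNA and less of it per cell cannot be told apart. The 40 Hy3 marker spots, between 3027 and 5812.25 raw units on the control array, read 1.75 to 4.75 units more on the ID8 array, at most 0.112% apart. Against the CT-26 array the same spots differed by -1409 to 466.25 units. The marker spots of the control and ID8 columns are thus nearly equal in the deposited table, and the sources used here do not say why.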

How the data were processed

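Hy3-labelled RNA was hybridised to miRCURY arrays and scanned on a GenePix instrument, per the labels' protocols. The deposited table gives raw, corrected and normalized intensity for 1408 probes, per the file headers, and the deposited series matrix repeats the normalized intensity with a largest difference of 0. The control column and those of 1D8, the spelling of ID8 used there, and CT-26 were matched to samples by title. The rule behind the scaling constants was found from the values.

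Log2 ratios were taken from the deposited normalized intensity, for miRNAs with corrected intensity of at least 50 on both arrays, averaging probes of 1 name. Calls used 2-fold. With 1 array per group there is no test, SD or SE, and the number of arrays limits precision. The members and lists were chosen with earlier results of these data known. Named miRNAs were the members, the 5 nearest profiles of each, measured members of the repeat lists, the TLR ligand list and the 3 widest arm pairs per comparison; spots beside the members, other genes of the marker lists and the nearest profiles after section centring were named after their values were seen. The list of UG repeats fell back on family names, as the RefSeq table held none of them. The calculation of ratios was checked on simulated arrays, which had no background and no section effect, so the check does not bear on either. Tools were Python 3.11.15, pandas 2.3.3, limma 3.58.1 (normexp) and RNAfold 2.7.2.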

Additional observations from a re-analysis of the deposited data

How the results depend on the processing

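miR-574-5p kept its direction in all 3 comparisons under the 10 alternatives tried for each, with log2 ratios of -4.13 to -2.38 in CT-26 over control and 1.70 to 2.53 in ID8 over CT-26, all past 2-fold. In ID8 over control it passed 2-fold when scaled to U6-snRNA-2 (-2.05) or SNORD3@ (-1.11). miR-574-3p passed it there when scaled to U6-snRNA-2 (-1.73), and in CT-26 over control it fell short of 2-fold when scaled to the total of the mouse probes (-0.92) or centred on the array section (-0.60). Section centring and the median without the miR-574 probes were chosen after seeing the data, as was quantile scaling of the arm divergence. The divergence kept its side of 2-fold under 4 alternatives in each comparison. U6-snRNA-2 itself had log2 ratios to control of 1.27 (ID8) and 1.07 (CT-26), and SNORD3@ of 0.33 and 0.43, and scaling to either lowers all miRNAs by that much. Relative to the median of all miRNAs, miR-574-5p in ID8 over control was at -0.80 as deposited. For the other changes the cause was not tested.

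Counts of miRNAs past 2-fold moved most with the floor and the reference. Scaled to U6-snRNA-2, 1 was higher and 117 lower in ID8 over control and 1 higher and 83 lower in CT-26 over control. Scaled to SNORD3@ they were 3 and 10, and 10 and 31. With a floor of 100 they were 4 and 3 in ID8 over control and 13 and 6 in CT-26 over control, and 7 were lower in ID8 over CT-26. With no floor they were 45 and 50, 62 and 71, and 34 and 32 in ID8 over CT-26. Without normalization 7 were higher in ID8 over CT-26. The median absolute divergence of other arm pairs in CT-26 over control was 1.00 with no floor. At a floor of 100 miR-574-5p would be under it on the CT-26 array. No paired analysis was possible because each group has 1 array. No replicate could be left out for the same reason.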
